A study of Mus musculus with 4 samples.

Results

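The genes described here are the antiviral genes that type I interferon induces, together with the subunits of its receptor. A list of 49 such genes was matched by gene symbol or gene ID to the probe sets of an expression array, keeping only probe sets annotated with a single gene, and 42 of the 49 were measured among 12393 genes in all. Each gene was represented by its brightest probe set. Ddx58, Oas1g, Isg15, Herc6, Dtx3l, Ifi44 and Xaf1 had no probe set that met this rule and were not analysed here. The samples were dendritic cells (DC), which present antigen to T cells, grown from bone marrow of C57BL/6 mice. NKT-modulated DC, on 2 arrays, had been modulated by natural killer T (NKT) cells, lymphocytes that recognise lipid antigens, and immature DC, on another 2 arrays, had not. RNA of both groups came from CD11c cells, per the design text; the sources used here do not state the duration or cell ratio of the modulation, or the age of the mice. The labels do not say that the arrays of a group came from separate cultures, so each p-value reflects the scatter of these arrays alone, which may be technical. Pearson's correlation of log2 signals was 0.985 between the NKT-modulated arrays, 0.987 between the immature arrays and 0.960 to 0.965 between groups.

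Type I interferons bind the receptor formed by Ifnar1 and Ifnar2, whose kinases Jak1 and Tyk2 activate a complex that holds Stat2 and Irf9. This complex binds the interferon-stimulated response element (ISRE) in promoters of genes that sense viral nucleic acid, degrade or edit RNA, block entry and release of virus, or attach ISG15, a ubiquitin-like protein, to other proteins. Interferon gamma acts through another promoter element, the gamma-activated site (GAS), and induces many of the same genes. In DC this programme accompanies maturation and raises the readiness of the cell to detect infection.

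Most of the antiviral genes were higher in NKT-modulated DC. Of 42 measured members, 24 rose and 1 fell, and 17 did not pass the threshold of 0.05 on the adjusted p. The median log2 change of the members was 0.80, against -0.04 over all genes. The share that rose was 57.1% of the members, beside 5.99% of all genes, and the share that fell was 2.38%, beside 6.9% of all genes. Of the 24 rises, 18 exceeded a log2 change of 1. The largest was that of Ifit2, with a log2 change of 2.30 ± 0.15 (SE, 2 arrays per group, as for all changes below), and the only fall was that of Ifitm6, at -1.45 ± 0.20. No member was among the 100 largest rises of all genes. RNA was measured in bulk, so fewer cells of a type and less RNA per cell cannot be told apart. All changes are NKT-modulated minus immature DC on a quantile-normalized log2(signal + 16) scale, on which the change of dim genes is understated, and were tested with limma, with p-values adjusted over 22626 probe sets by the Benjamini-Hochberg method. Signals given per array are the deposited linear intensities, before that normalization.

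After normalization both NKT-modulated arrays lay above both immature arrays for 34 members, beside 23.8% of all genes, and below them for 5 members, beside 32.5% of all genes. Ifitm1, Bst2 and Trim25 overlapped. The balance of calls over all genes moved with the scaling: 46.5% of calls were higher after quantile normalization, 35.2% without further normalization and 54.0% after cyclic loess. The members that rose numbered 24, 21 and 26 under these settings, in that order.

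**Figure D1:**
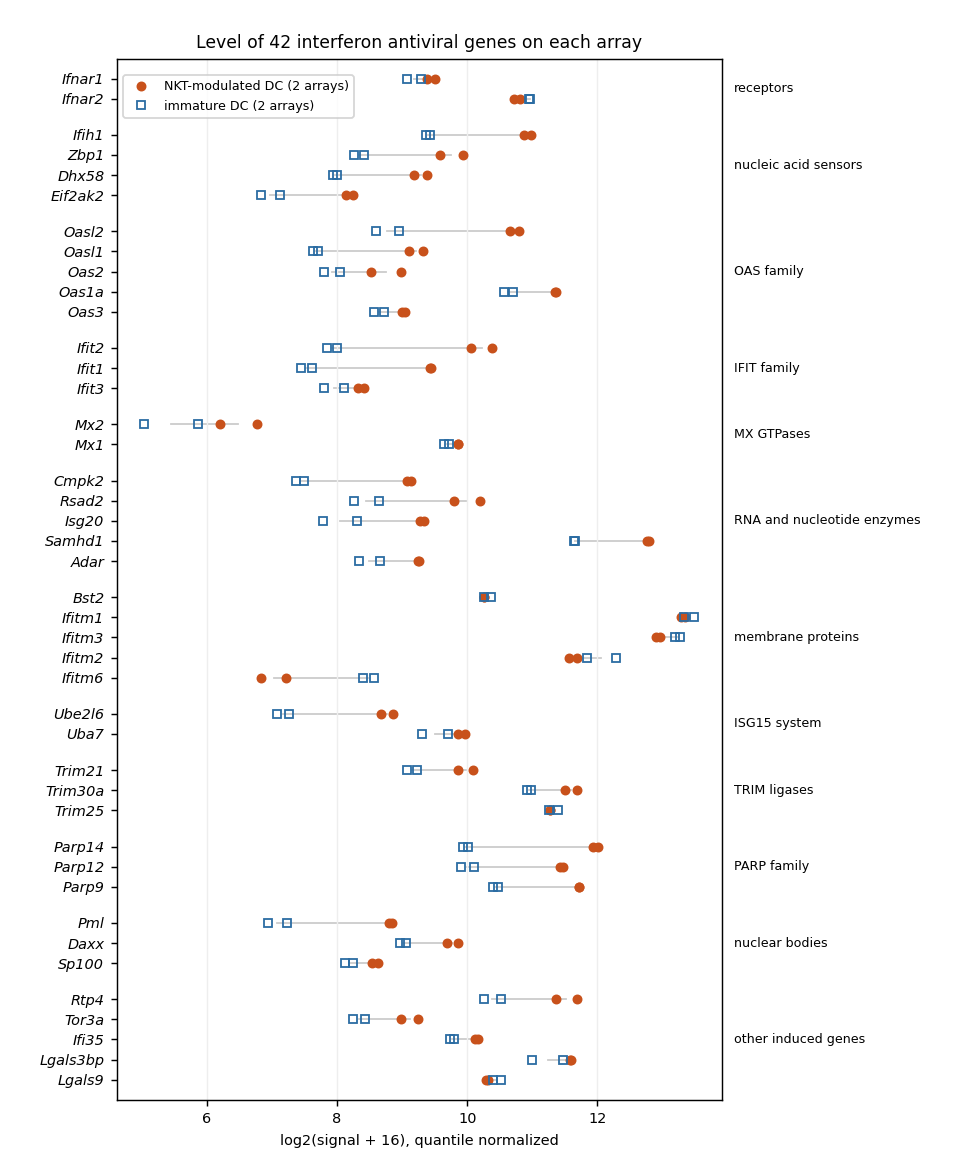
Level of each measured member on each array, as log2(signal + 16) after quantile normalization, with genes in rows by role. Filled circles are the 2 NKT-modulated arrays and open squares the 2 immature arrays, a grey line joins the group means, and for Ifitm6 the circles lie below the squares. Levels of different genes come from different probe sets and are not comparable.

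The receptor genes did not pass. Ifnar1 had signals of 623 and 662 in NKT-modulated DC, against 610.1 and 599 in immature DC, with a log2 change of 0.26 (95% confidence interval -0.04 to 0.57, adjusted p = 0.265). Ifnar2 had signals of 1751 and 1605 in NKT-modulated DC, against 1906 and 2129.8 in immature DC, with a log2 change of -0.20 (95% confidence interval -0.40 to 0.01, adjusted p = 0.216). The receptor subunits thus had changes of opposite sign, each within an interval that holds 0.

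The ligands were dim in both groups. For 9 type I interferon genes a probe set was annotated to that gene alone. Of these genes 0 rose and 0 fell by limma, beside 5.99% and 6.9% of all genes. At an unadjusted p under 0.05, for which no share of all genes was computed, 0 differed. Their signals lay between 1.8 and 74.4 over all 4 arrays. Probe sets of close paralogs among the interferon alpha genes may share signal. Ifnb1, interferon beta, had signals of 36.4 and 35.8 in NKT-modulated DC, against 21.6 and 30.3 in immature DC, with a log2 change of 0.33 ± 0.26 (adjusted p = 0.516). Ifng, interferon gamma, the type II ligand, had signals of 3124 and 1969 in NKT-modulated DC, against 1.76 and 5.66 in immature DC, and rose (adjusted p = 7.37e-05). The immature signals lie below the pseudocount of 16, which sets the size of the fitted log2 change of 7.0. Some T cell transcripts, described below, also rose in the NKT-modulated arrays. Which cells held the Ifng RNA was not tested.

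Genes that carry and restrain the interferon signal rose in part. Of 18 measured genes of that list, which holds Ifng, 11 rose, Ifng among them, and 1 fell, beside 5.99% of all genes that rose and 6.9% that fell. Their median log2 change was 0.57, against -0.04 for all genes. Stat2 had signals of 488 and 473 in NKT-modulated DC, against 298 and 313 in immature DC, and a log2 change of 0.83 ± 0.13 (adjusted p = 0.0115). Irf9, the DNA-binding partner of Stat2, had signals of 1163 and 1131 in NKT-modulated DC, against 724 and 858 in immature DC (log2 change 0.67 ± 0.09, adjusted p = 0.00771). Irf7, the factor that amplifies type I interferon production, rose by 1.49 ± 0.11, and Irf1, a factor that interferon gamma induces strongly, by 2.72 ± 0.10. Among the restraining genes, Usp18, which removes ISG15 and blocks Ifnar2 signalling, rose by 1.07 ± 0.09, and the kinase inhibitors Socs1 and Socs3 by 1.96 ± 0.18 and 1.86 ± 0.08. Mavs, the mitochondrial adaptor of the RNA sensors, was the gene that fell, with signals of 374 and 403 in NKT-modulated DC, against 708 and 1097 in immature DC (log2 change -0.97 ± 0.17, adjusted p = 0.0188). Mavs had 2 probe sets, and only the brightest is given here. The receptor kinases Jak1 and Tyk2 had log2 changes of 0.03 and -0.11, with adjusted p = 0.875 and 0.554.

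Each measured sensor of foreign nucleic acid rose, 4 of 4. Ifih1 (MDA5), a helicase that detects long double-stranded RNA, had signals of 1829 and 1935 in NKT-modulated DC, against 641 and 757 in immature DC (log2 change 1.53 ± 0.09, adjusted p = 0.000502). Zbp1, which binds nucleic acid in the Z form, had signals of 919 and 700.5 in NKT-modulated DC, against 327 and 333 in immature DC (log2 change 1.42 ± 0.15, adjusted p = 0.00323). Dhx58 (LGP2), a helicase that tunes Ifih1, had signals of 533 and 609 in NKT-modulated DC, against 243 and 264 in immature DC (log2 change 1.32 ± 0.14, adjusted p = 0.00285). For these 3 genes both NKT-modulated arrays lay far above both immature arrays. After normalization both NKT-modulated arrays lay above both immature arrays for 23.8% of all genes, at any distance. Eif2ak2 (PKR), a kinase that halts translation once it binds double-stranded RNA, had signals of 249.9 and 262 in NKT-modulated DC, against 127 and 105 in immature DC (log2 change 1.21 ± 0.20, adjusted p = 0.0141). Its other probe set also rose, by 0.90 ± 0.20, while the 2 dimmer probe sets of Dhx58 did not pass (adjusted p = 0.305 and 0.590), and averaging all probe sets of Dhx58 gave a log2 change of 0.77 with adjusted p = 0.0843 (range over its alternatives 0.000326 to 0.0843). Eif2ak2 lost its call on leaving out immature replicate 2 (adjusted p = 0.0696), NKT-modulated replicate 1 (adjusted p = 0.0696) or NKT-modulated replicate 2 (adjusted p = 0.0756), with a range of 0.0020 to 0.0756 over its alternatives.

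In the OAS family 3 of 5 measured genes rose, both OAS-like genes among them. OAS enzymes make the oligoadenylates that switch on the nuclease RNase L, while mouse Oasl1 restrains translation of Irf7. Oasl2 had signals of 1569 and 1697 in NKT-modulated DC, against 377 and 547 in immature DC (log2 change 1.96 ± 0.14, adjusted p = 0.000867). Oasl1 had signals of 592 and 494 in NKT-modulated DC, against 198 and 208 in immature DC (log2 change 1.54 ± 0.15, adjusted p = 0.00213). Both OAS-like genes thus changed by more than 1 on the log2 scale, with groups far apart. Oas1a, whose near-identical paralogs its probe set may not separate, had signals of 2604 and 2559.6 in NKT-modulated DC, against 1584 and 1651 in immature DC (log2 change 0.72 ± 0.09, adjusted p = 0.00490). Oas2 had signals of 329 and 449.8 in NKT-modulated DC, against 251 and 239 in immature DC, and missed the threshold (log2 change 0.82 ± 0.20, adjusted p = 0.0543). Oas3 had signals of 467 and 474 in NKT-modulated DC, against 414 and 416 in immature DC (log2 change 0.38 ± 0.13, adjusted p = 0.126). Neither Oas2 nor Oas3 overlapped between groups, and after normalization 23.8% of all genes also lay higher on both NKT-modulated arrays. Oas2 passed under 4 alternatives and reached adjusted p = 0.195 at most (from 0.0148), and Oas1a lost its call when the variance was fitted without an intensity trend (adjusted p = 0.0643; range over its alternatives 0.00127 to 0.0643). Whether Oasl1 and Oasl2 changed more than Oas1a, Oas2 and Oas3 was not tested.

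The IFIT genes, whose products bind viral RNA ends or translation factors, held both the steepest rise of the list and a member that did not pass. Ifit2 had signals of 1012 and 1260.3 in NKT-modulated DC, against 244 and 247 in immature DC (log2 change 2.30 ± 0.15, adjusted p = 0.000618). Ifit1 had signals of 641 and 635 in NKT-modulated DC, against 161 and 205 in immature DC (log2 change 1.92 ± 0.14, adjusted p = 0.000867). Their neighbour on chromosome 19, Ifit3, had signals of 288 and 297 in NKT-modulated DC, against 213 and 299 in immature DC, and the signals overlapped before normalization (log2 change 0.41 ± 0.17, adjusted p = 0.206). Without immature replicate 2, the array with the higher Ifit3 signal, the change stayed without a call, and its alternatives ranged from adjusted p = 0.110 to 0.635. Ifit3 has a near-identical copy that its probe set may not separate.

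The promoters of the IFIT genes differ in their motif matches, and those of Rsad2 and Bst2, described below, are set beside them for the same reason: Ifit1 and Rsad2 rose and hold ISRE matches, Ifit3 and Bst2 did not pass and hold them too, and Ifit2 rose most with no ISRE match in its window. Each sequence is the 250 bases before the annotated start in RefSeq (GRCm38.p6), 5′ to 3′ on the strand of the gene, with the ISRE core (GAAA, any 2 bases, GAAA, on either strand) and the GAS (TTCNNNGAA, which reads alike on both strands) in capitals. For Ifit2, which has a pair of annotated starts, the upstream one is shown.
Ifit1 promoter, chr19:34640639-34640888 (+ strand): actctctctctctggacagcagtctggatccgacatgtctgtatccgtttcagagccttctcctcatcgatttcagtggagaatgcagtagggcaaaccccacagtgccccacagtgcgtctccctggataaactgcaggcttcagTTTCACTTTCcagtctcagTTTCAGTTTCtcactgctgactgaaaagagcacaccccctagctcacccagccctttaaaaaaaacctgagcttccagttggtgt
Ifit2 promoter, chr19:34550444-34550693 (+ strand): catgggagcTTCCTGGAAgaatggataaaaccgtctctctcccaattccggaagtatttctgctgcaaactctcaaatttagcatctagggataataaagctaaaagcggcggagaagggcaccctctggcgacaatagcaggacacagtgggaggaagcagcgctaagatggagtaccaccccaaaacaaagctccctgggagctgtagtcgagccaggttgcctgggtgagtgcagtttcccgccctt
Ifit3 promoter, chr19:34583279-34583528 (+ strand): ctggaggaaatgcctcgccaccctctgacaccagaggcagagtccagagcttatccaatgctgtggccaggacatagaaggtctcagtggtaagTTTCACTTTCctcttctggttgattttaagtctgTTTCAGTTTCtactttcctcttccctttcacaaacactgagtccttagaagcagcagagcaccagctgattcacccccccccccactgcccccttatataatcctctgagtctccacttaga
Rsad2 promoter, chr12:26456453-26456702 (- strand): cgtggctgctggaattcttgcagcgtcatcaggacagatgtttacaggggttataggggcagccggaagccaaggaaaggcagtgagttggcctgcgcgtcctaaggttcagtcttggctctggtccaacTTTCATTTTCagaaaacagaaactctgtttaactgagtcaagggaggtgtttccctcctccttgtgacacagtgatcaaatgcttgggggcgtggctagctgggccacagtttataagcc
Bst2 promoter, chr8:71537473-71537722 (- strand): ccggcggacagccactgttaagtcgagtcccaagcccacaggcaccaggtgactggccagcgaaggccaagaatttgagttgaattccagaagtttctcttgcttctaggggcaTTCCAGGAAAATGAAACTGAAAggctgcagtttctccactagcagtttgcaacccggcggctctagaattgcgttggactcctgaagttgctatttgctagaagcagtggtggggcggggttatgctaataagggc
Ifit1 holds 2 ISRE matches, TTTCACTTTC and TTTCAGTTTC, which begin 104 and 85 bases before the start. Ifit3 holds the same 2 letter strings, beginning 156 and 122 bases before the start. Ifit2 holds 1 GAS match, TTCCTGGAA, 241 bases before the start, and Rsad2 holds 1 ISRE match, TTTCATTTTC, 120 bases before it. In Bst2 the GAS match TTCCAGGAA at 136 bases overlaps the first of 2 ISRE matches, GAAAATGAAA and GAAACTGAAA, which overlap each other at 130 and 124 bases before the start.

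RefSeq promoters were found for 40 of the 49 members. Those without one were mostly rises: Dhx58, Zbp1, Parp9, Parp14, Rtp4 and Tor3a rose, and Oas2, Mx1 and Mx2 did not pass. An ISRE core match lay in 11 of these 40 (27.5%), beside 936 of 27025 genes of the promoter table (3.46%). A GAS match lay in 8 of the 40 (20%), beside 2197 of 27025 genes (8.13%). Among members that rose, 4 of 18 with a promoter held the ISRE core (22.2%) and 5 of 18 the GAS (27.8%). Among measured members that did not pass, 5 of 14 held the ISRE core (35.7%) and 2 of 14 the GAS (14.3%). Among members with a promoter, the share with an ISRE core was thus lower for those that rose than for those that did not pass. This difference was not tested, and the missing promoters fall unevenly on the groups. The matches of Oas1a and the paralog Oas1g lie in the same stretch of letters, and a match is one of letters, not a measured binding site.

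**Figure D2:**
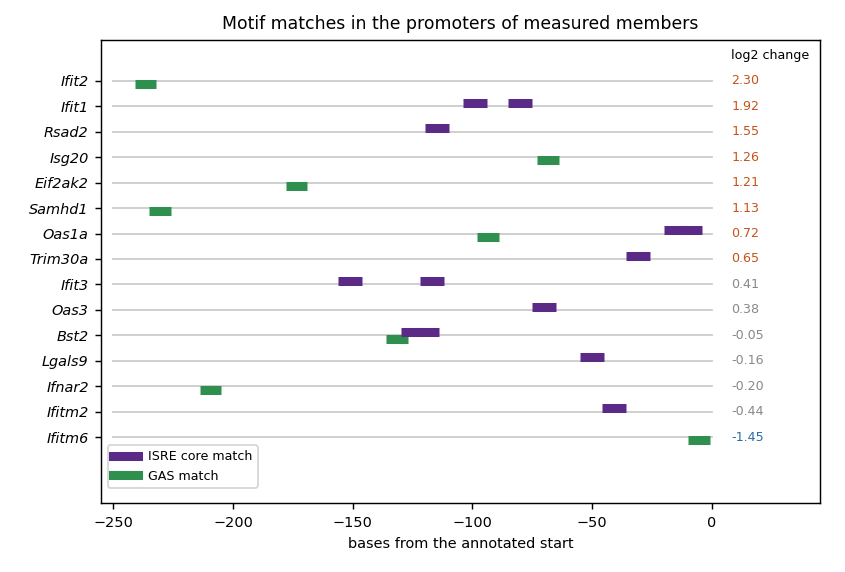
Matches of the ISRE core (purple) and the GAS (green) in the 250 bases before the annotated start of the measured members with at least 1 match, against the distance from the start in bases. Genes run from the highest log2 change at the top (2.30 for Ifit2) to the lowest at the bottom (-1.45 for Ifitm6), printed at the right in orange for rises, blue for the fall and grey for changes that did not pass.

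The MX genes, dynamin-like GTPases that block viral replication complexes and carry defective alleles in most inbred mouse strains, did not pass. Mx1 had signals of 873 and 859 in NKT-modulated DC, against 778 and 934 in immature DC (log2 change 0.17 ± 0.10, 95% confidence interval -0.07 to 0.40, adjusted p = 0.349). Mx2 was dim, with signals of 59.3 and 85.9 in NKT-modulated DC, against 17.5 and 41.9 in immature DC (log2 change 1.03 ± 0.38, adjusted p = 0.153). Mx2 was higher in both NKT-modulated arrays, with a 95% confidence interval of 0.12 to 1.95, and its change ran from 0.58 to 1.42 over the alternatives.

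Each of the 5 enzymes that act on RNA or nucleotides rose. Cmpk2, a mitochondrial nucleotide kinase, had signals of 489 and 504 in NKT-modulated DC, against 153 and 187 in immature DC (log2 change 1.67 ± 0.15, adjusted p = 0.00160). Rsad2 (viperin), its neighbour on chromosome 12, makes a nucleotide analogue that ends viral RNA chains, and had signals of 836 and 1094 in NKT-modulated DC, against 290.4 and 437 in immature DC (log2 change 1.55 ± 0.19, adjusted p = 0.00508). The lowest NKT-modulated signal of each lay well above the highest immature signal. Isg20, an exonuclease of RNA, had signals of 576 and 588 in NKT-modulated DC, against 210.4 and 343 in immature DC (log2 change 1.26 ± 0.19, adjusted p = 0.0110). Samhd1, which depletes the deoxynucleotides that retroviruses need, had signals of 7245 and 6931 in NKT-modulated DC, against 3013 and 3405 in immature DC (log2 change 1.13 ± 0.07, adjusted p = 0.000617). All 3 further probe sets of Samhd1 rose too, by 1.07 to 1.29, while dimmer probe sets of Cmpk2 and Rsad2 were mixed. That of Cmpk2 did not pass (0.24 ± 0.34, adjusted p = 0.739), and averaging both gave Cmpk2 a log2 change of 0.95 (adjusted p = 0.0421). Of the 2 of Rsad2, the brighter rose by 1.81 ± 0.29 and the other did not pass (1.01 ± 0.26, adjusted p = 0.0598). Adar, which edits adenosine in double-stranded RNA, had signals of 561 and 552 in NKT-modulated DC, against 309.9 and 446 in immature DC (log2 change 0.75 ± 0.15, adjusted p = 0.0283). Adar lost its call without immature replicate 1 (adjusted p = 0.0929) and without either NKT-modulated array (adjusted p = 0.127 and 0.114), and also without further normalization (0.56, adjusted p = 0.124), with a range of 0.00809 to 0.127 over its alternatives. Isg20 lost its call without NKT-modulated replicate 1 or 2 (adjusted p = 0.0641 and 0.0631; range 0.00153 to 0.0641).

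Of the 5 membrane proteins 0 rose, 1 fell and 4 did not pass. All 5 changes were below 0 after quantile normalization, as were those of Ifnar2, Trim25 and Lgals9; the difference from the other roles was not tested. By limma 0 had an unadjusted p under 0.05 with a higher level, and 3 had one with a lower level. No share of all genes was computed at that unadjusted threshold, so whether these counts are unusual cannot be read from them. Ifitm6, a member of the IFITM family of small membrane proteins, whose best-known members block fusion of virus with the cell, had signals of 97 and 122 in NKT-modulated DC, against 324 and 414 in immature DC (log2 change -1.45 ± 0.20, adjusted p = 0.00804). Ifitm3, the family's main barrier to influenza virus, had signals of 8056 and 7808 in NKT-modulated DC, against 9269 and 9548 in immature DC (log2 change -0.30 ± 0.08, adjusted p = 0.0582). Ifitm2 had signals of 3354 and 2929 in NKT-modulated DC, against 3443 and 5095 in immature DC (log2 change -0.44 ± 0.15, adjusted p = 0.137). For these 3 genes both NKT-modulated arrays lay below both immature arrays before and after normalization, though for Ifitm2 by a small margin. After normalization the same order held for 32.5% of all genes. Ifitm1 had signals of 11071 and 9734 in NKT-modulated DC, against 11289.8 and 9984 in immature DC, which overlapped (log2 change -0.10 ± 0.09, adjusted p = 0.559). The 4 IFITM genes lie on chromosome 7, and probe sets of close paralogs such as Ifitm2 and Ifitm3 may share signal. Bst2 (tetherin), which holds budding virus at the cell surface and also marks plasmacytoid DC in the mouse, had signals of 1179 and 1146 in NKT-modulated DC, against 1187 and 1443 in immature DC (log2 change -0.05 ± 0.09, adjusted p = 0.783); after cyclic loess its change was 0.0027.

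The calls of Ifitm6 and Ifitm2 depended on single arrays, and Ifitm1 had no call under any alternative. Without immature replicate 2 the fall of Ifitm6 had adjusted p = 0.0636 (range over its alternatives 0.000876 to 0.0636), and without immature replicate 1 the change of Ifitm2 was -0.66 with adjusted p = 0.0236 (range 0.0236 to 0.361). Ifitm3 passed, with adjusted p = 0.0149, when only probe sets with a mean signal of at least 100 were tested (range 0.0149 to 0.260). In the same arrays 5 of 9 monocyte and macrophage markers fell and 1 rose, beside 6.9% of all genes that fell and 5.99% that rose. The median log2 change of the markers was -0.54. Ccr2, C1qa and C1qb had changes of -2.03 ± 0.21, -1.15 ± 0.18 and -1.09 ± 0.21. Cd14 and Fcgr1 fell less, at -0.54 ± 0.08 and -0.54 ± 0.09. Mertk was the marker that rose, by 1.09 ± 0.09, and Adgre1 did not pass (-0.12 ± 0.09). Summed signals, to which Csf1r and Cd68, which did not pass, gave the largest parts, were 27623 to 28339 in NKT-modulated DC and 31336 to 31387 in immature DC. None of these markers was near 0, and the lowest signal was 176. Of 5 plasmacytoid DC markers 1 rose and 2 fell, beside the same shares of all genes. Their summed signals were 2478 to 2680 in NKT-modulated DC and 2241 to 2966 in immature DC. Their part in the changes of the IFITM genes and Bst2 was not tested.

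Of the ISG15 conjugation system 2 genes were measured. Ube2l6, the conjugating enzyme, had signals of 424 and 363 in NKT-modulated DC, against 121 and 154 in immature DC (log2 change 1.6 ± 0.17, adjusted p = 0.00319). Uba7, the activating enzyme, had signals of 943 and 861 in NKT-modulated DC, against 806 and 698 in immature DC, and did not pass by its brightest probe set (log2 change 0.41 ± 0.15, adjusted p = 0.155). Its 2 dimmer probe sets passed, with log2 changes of 0.65 ± 0.13 and 0.70 ± 0.13 (adjusted p = 0.0318 and 0.0232), and averaging its probe sets gave adjusted p = 0.0206 (range over its alternatives 0.0206 to 0.427).

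The TRIM ubiquitin ligases rose in 2 of 3 cases. Trim21, a cytosolic antibody receptor, had signals of 874 and 1022 in NKT-modulated DC, against 580.3 and 597 in immature DC (log2 change 0.83 ± 0.13, adjusted p = 0.0113). Trim30a, which restrains inflammatory signalling in the mouse, had signals of 2935 and 3178 in NKT-modulated DC, against 1835 and 2170.3 in immature DC (log2 change 0.65 ± 0.09, adjusted p = 0.00869). In both genes the groups were separate, by a smaller distance than for the sensors. Trim25, which activates the RNA sensor RIG-I, had signals of 2466 and 2393 in NKT-modulated DC, against 2566 and 2587 in immature DC (log2 change -0.06 ± 0.09, adjusted p = 0.726). Its 3 probe sets disagreed: the dimmest rose, with a log2 change of 0.87 ± 0.15 (adjusted p = 0.0170), and the other had -0.18 ± 0.10 (adjusted p = 0.355). Trim21 lost its call without immature replicate 2 or NKT-modulated replicate 2 (adjusted p = 0.0509 and 0.0674; range over its alternatives 0.00289 to 0.0684), and Trim30a without NKT-modulated replicate 2 (adjusted p = 0.0601; range 0.00230 to 0.0832).

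All 3 measured PARP family genes, which attach ADP-ribose to proteins or bind it, rose, with narrow spread. Parp14 had signals of 4178 and 3805 in NKT-modulated DC, against 993 and 1075 in immature DC (log2 change 2.00 ± 0.08), and its adjusted p = 0.000120 was the lowest of all members. Parp12 had signals of 2756 and 2750.4 in NKT-modulated DC, against 1059 and 1048 in immature DC (log2 change 1.45 ± 0.10, adjusted p = 0.000737). Parp9, the partner of the ubiquitin ligase Dtx3l, had signals of 3435 and 3268 in NKT-modulated DC, against 1359.6 and 1469 in immature DC (log2 change 1.29 ± 0.08, adjusted p = 0.000545). These 3 kept their call under each of the 11 alternatives run for single genes.

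Genes of PML nuclear bodies, nuclear structures at which incoming viral genomes are silenced, rose in 2 of 3 cases. Pml, their scaffold, had signals of 402 and 408 in NKT-modulated DC, against 138 and 115 in immature DC (log2 change 1.74 ± 0.18, adjusted p = 0.00267). Daxx, a histone chaperone of these bodies, had signals of 774 and 858 in NKT-modulated DC, against 486 and 594 in immature DC (log2 change 0.76 ± 0.12, adjusted p = 0.0113). Sp100 had signals of 333 and 352 in NKT-modulated DC, against 264 and 332 in immature DC (log2 change 0.40 ± 0.14, adjusted p = 0.146). The scaffold thus showed the widest separation of the 3 genes, and Sp100 nearly overlapped. Daxx lost its call without immature replicate 1 or NKT-modulated replicate 2 (adjusted p = 0.0538 and 0.0734) and without further normalization (0.59, adjusted p = 0.0550; range over its alternatives 0.00355 to 0.0734).

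The remaining members split. Rtp4, a chaperone of membrane receptors, had signals of 2633 and 3182 in NKT-modulated DC, against 1408 and 1335 in immature DC (log2 change 1.13 ± 0.14, adjusted p = 0.00562). Tor3a, an ATPase of the torsin family, had signals of 463 and 549 in NKT-modulated DC, against 287 and 377 in immature DC (log2 change 0.78 ± 0.15, adjusted p = 0.0266). Tor3a was the least stable rise, without a call when any 1 of the 4 arrays was left out (adjusted p = 0.109 and 0.0599 without immature replicates 1 and 2, 0.0634 and 0.124 without NKT-modulated replicates 1 and 2, and 0.101 without further normalization; range over its alternatives 0.00729 to 0.124). Without the intensity trend Rtp4 reached adjusted p = 0.0566 (range over its alternatives 0.000675 to 0.0566). Ifi35, an interferon-induced leucine zipper protein, had signals of 1088 and 1037 in NKT-modulated DC, against 869 and 942 in immature DC (log2 change 0.37 ± 0.09, adjusted p = 0.0604; range 0.0392 to 0.319). Lgals3bp, a secreted glycoprotein that binds galectins, had signals of 3084 and 3015 in NKT-modulated DC, against 1939 and 3004 in immature DC (log2 change 0.35 ± 0.15, adjusted p = 0.225). Immature replicate 2 lay beside the NKT-modulated arrays, and without it the change of Lgals3bp was 0.60 with adjusted p = 0.0254 (range 0.0254 to 0.546). Lgals9, the lectin galectin-9, had signals of 1230.0 and 1172 in NKT-modulated DC, against 1302 and 1604 in immature DC (log2 change -0.16 ± 0.09, adjusted p = 0.350).

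**Figure D3:**
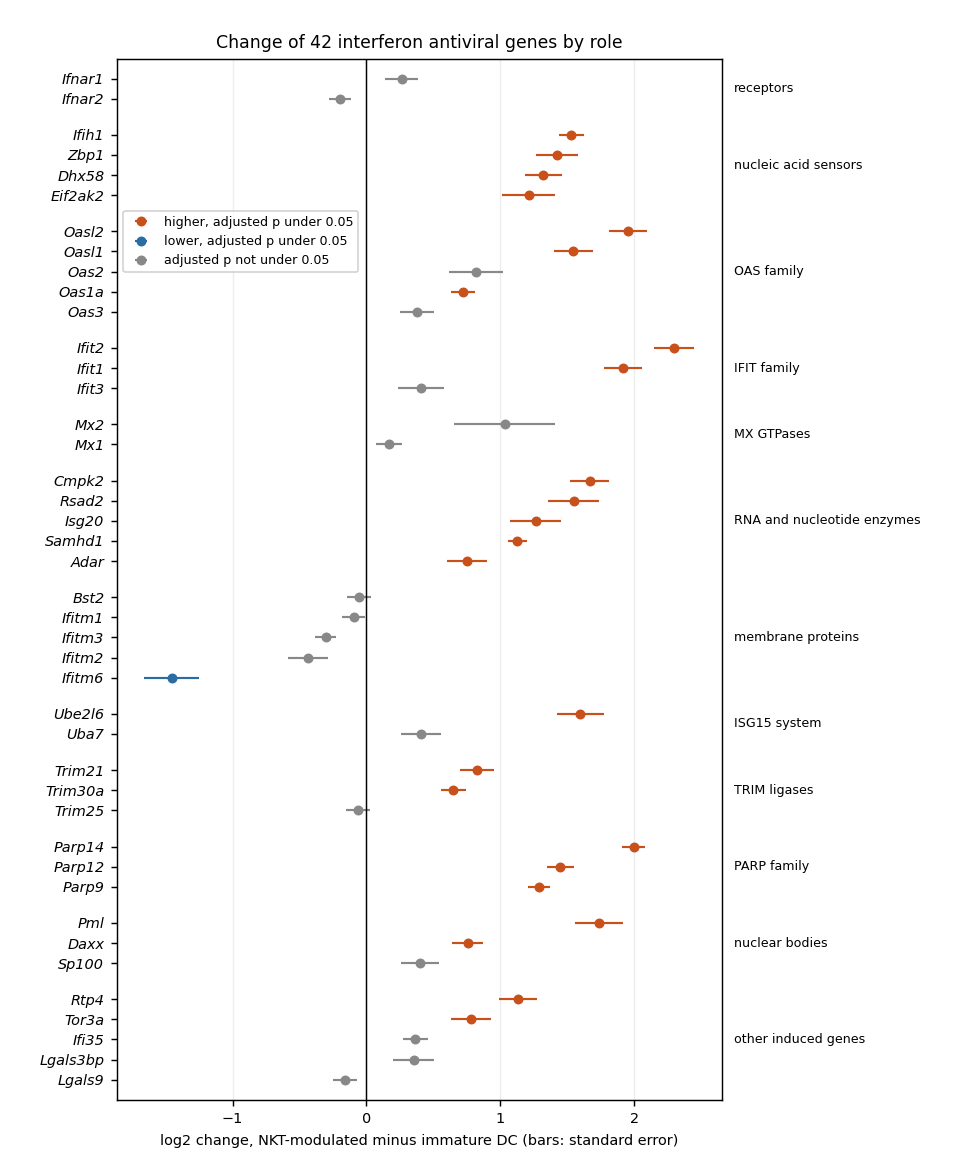
Log2 change of each measured member, NKT-modulated minus immature DC, with genes in rows by role and bars of 1 standard error. Orange marks the 24 rises, blue the fall of Ifitm6 and grey the 17 members that did not pass; the 5 membrane proteins lie left of 0.

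Targets of interferon gamma had a higher median change than the antiviral genes. Of 20 measured targets, 17 rose and 0 fell, against 24 and 1 of the 42 antiviral genes. Over all genes 5.99% rose and 6.9% fell. The median log2 change was 2.31 for these targets, against 0.80 for the antiviral genes and -0.04 for all genes. By limma 0 of the 20 were lower at an unadjusted p under 0.05, for which no share of all genes was computed. Cxcl9, a chemokine, rose by 7.83 ± 0.14, Acod1, which makes itaconate, by 5.04 ± 0.12, and Iigp1, a GTPase of cell-autonomous immunity, by 4.60 ± 0.12. Cxcl10, which both interferon types induce, rose by 4.04 ± 0.12, and the GTPase genes Irgm1 and Gbp2 by 3.07 ± 0.10 and 2.43 ± 0.08. The size of the change of Cxcl9, whose immature signals of 4.39 and 3.86 lie below the pseudocount, is likewise set by it. Ciita, Psmb8 and Nos2 did not pass (log2 changes -0.20, -0.01 and 0.17), and Nos2 was dim in all arrays, between 2.06 and 8.27. The difference between the lists was not tested, and both lists were chosen with earlier results of these data known. Interferon gamma also induces many of the antiviral genes, so the lists do not separate the interferon types.

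T cell transcripts moved in the same arrays. Of 20 measured T and NKT cell markers 12 rose and 0 fell, beside 5.99% of all genes that rose and 6.9% that fell. Summed signals of these markers were 6737 to 8591 in NKT-modulated DC and 1478 to 1597 in immature DC. By limma 13 were higher and 0 lower at an unadjusted p under 0.05, for which no share of all genes was computed. Cd3g, a chain of the T cell receptor complex, had signals of 1401 and 1046 in NKT-modulated DC, against 19.0 and 15.4 in immature DC, and Cd3d 304 and 205 in NKT-modulated DC, against 5.38 and 5.58 in immature DC. Cd2, Cd5 and Cd8a stayed under 70 in all arrays, and Zbtb16, the transcription factor of NKT cells, had signals of 125 and 72.7 in NKT-modulated DC, against 94.2 and 95.4 in immature DC (adjusted p = 0.839). Of 12 measured dendritic cell markers 4 rose and 0 fell by limma, beside the same shares of all genes. At an unadjusted p under 0.05, again without a share of all genes, 5 were higher and 1 lower. Batf3 and Irf4, transcription factors of conventional DC, rose by 1.74 ± 0.09 and 1.14 ± 0.08, and Cd83 and Cd86, surface proteins of mature DC, by 0.94 ± 0.08 and 0.85 ± 0.10. Flt3, a growth factor receptor of DC, had a log2 change of -0.54 ± 0.16 (adjusted p = 0.0875). Itgax (CD11c), which defines the cells sampled, and the antigen presentation genes H2-Ab1 and Cd74 did not pass (log2 changes -0.19, 0.08 and 0.02) and had signals of at least 4643 in every array. No T or NKT cell marker was listed at 0. The part of the cells that held these transcripts in the changes of Ifng and of the antiviral genes was not tested.

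**Figure D4:**
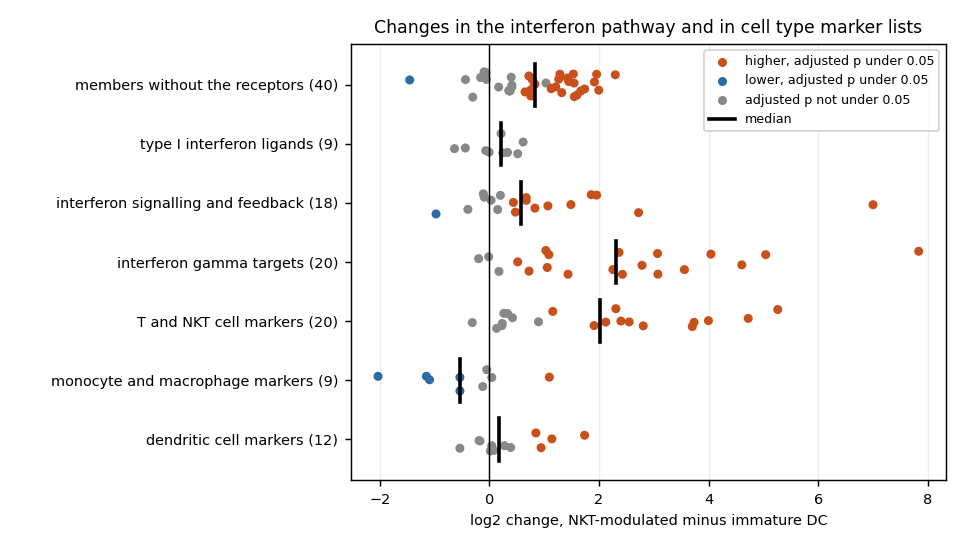
Log2 change of each measured gene, NKT-modulated minus immature DC, in the antiviral list without the receptors, 3 further lists of the interferon pathway and 3 lists of cell type markers. Each point is a gene, the black bar is the median of its list (2.31 for interferon gamma targets), and orange, blue and grey mark rises, falls and changes that did not pass.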

How the data were processed

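RNA of 4 samples was measured on Affymetrix arrays. The authors deposited an intensity on a linear scale for each probe set, made with GCOS per the submitters' processing notes; for its version, algorithm and scaling the sources used here give nothing. The series' design text names a log transformation that these values do not show, an array type with more probe sets than the 22690 rows, triplicates, and a labelling kit that differs from the labels' protocol. No detection calls were used, and the number of arrays limits the precision.

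The 64 control probe sets were left out. Signals became log2(signal + 16) and were quantile normalized, and all 22626 others were tested two-sided in R 4.3.3 with the lmFit and eBayes functions of limma 3.58.1. The variance followed an intensity trend, and the threshold was 0.05 on the Benjamini-Hochberg adjusted p. The limma fit was tested on simulated log2 values. The transformation, the normalization and the choice of probe set were not part of that test. Of the probe sets, 20380 had 1 gene symbol, 691 several and 1555 none; symbols were checked by gene ID against RefSeq (GRCm38.p6), and the brightest probe set stood for a gene. A probe set named for Oas1b, an old alias of Oas1g, was not taken for it, since it has a gene ID of its own.

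All 49 members may be named; context lists are given as counts, with up to 6 genes of the smallest p and fixed readouts, and further genes named from them were chosen after their values were seen. Motifs were searched in the 250 bases before each RefSeq start. The members and lists were chosen with earlier results of these data known. Alternatives were pseudocounts of 1 and 64, no further normalization, cyclic loess, a minimum mean signal of 100, no intensity trend, the mean over probe sets, an adjusted p under 0.001 (the threshold that the design text names), and leaving out each array.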

Additional observations from a re-analysis of the deposited data

How the results depend on the processing

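With 2 arrays per group, small changes of dim genes cannot be resolved here. Counts at an unadjusted p under 0.05 have no share of all genes beside them. No paired analysis was possible because the labels give the groups no shared replicate numbers. The members that rose numbered 16 to 26 under all alternatives but the stricter threshold of 0.001, which left 8; leaving out 1 array gave 17 to 22. The members that fell numbered 0 to 2 on leaving out 1 array, 2 with the minimum signal of 100 and 0 at the threshold of 0.001 (3 were lower at an unadjusted p under 0.05). Their median log2 change was 0.70 with a pseudocount of 64, 0.64 without further normalization, 0.87 after cyclic loess and 0.70 to 0.92 on leaving out 1 array; the median of all genes was -0.12 without further normalization. Over all genes, 384 were higher and 272 lower without the intensity trend, 131 and 22 at the threshold of 0.001, and 397 to 510 and 305 to 406 on leaving out 1 array. Of 25 called members 14 kept the call under every alternative run for single genes and 11 lost it under at least 1, among them Oas1a, Rtp4, Isg20, Trim21, Trim30a, Daxx, Adar and Tor3a without the trend and Adar, Daxx and Tor3a without further normalization; 6 members without a call gained one. Where a single array ended a call, it left that group with 1 array, assumed to vary like the other group. The sign turned only for Bst2, to 0.0027 after cyclic loess, and Trim25, to 0.0090 after cyclic loess, 0.0088 without immature replicate 1 (leaving out 1 array gave -0.13 to 0.0088) and 0.21 as the mean of its probe sets; the cause was not tested. The minimum signal left Mx2 untested.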

Other observations

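Markers of other cell types rose or fell in small numbers in these arrays. Over all genes 5.99% rose and 6.9% fell. With 5 to 8 measured genes per list, 1 or 2 calls are too few to describe a cell type. Of 6 measured NK cell markers 1 rose and 1 fell: Il2rb, a chain of the interleukin receptors that T cells also carry, had signals of 375 and 365 in NKT-modulated DC, against 7.89 and 6.94 in immature DC, and Klrd1, an NK receptor chain, had 134 and 161 in NKT-modulated DC, against 639 and 717 in immature DC. Ncr1, which defines NK cells, lay between 3.46 and 4.26 in all 4 arrays. Of 5 B cell markers 1 rose, Cd79b, by 2.47 ± 0.23, while Cd79a and Ms4a1 had log2 changes of -0.01 and 0.03. Of 8 neutrophil markers 2 rose, Ngp and S100a8, by 0.94 ± 0.19 and 0.62 ± 0.14, and 1 fell, Mmp8, at -0.51 ± 0.08. The other 5 did not pass, among them Ltf and S100a9, at 1.01 and 0.98, and Elane and Mpo, at -0.02 and 0.15. Of the 8 changes 6 were above 0.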
